A study of Bos taurus with 12 samples.

Results

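The 8 genes described here encode the enzymes that make serine and carry its one-carbon unit into folate: PHGDH, PSAT1, PSPH, SHMT1, SHMT2, MTHFD1, MTHFD2 and MTHFD1L. They are the rows of a bovine gene count table whose Entrez identifier maps to these symbols. Each has 1 row, and all 8 passed the filter on low counts. They stand among 13920 genes tested of 18885 with identifiers of their own, out of 19285 rows in all.

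Poly-A RNA of embryonic stem cells of the bovine line F7, genotype WT, gave 12 sequenced libraries, 3 per group. MC, whose treatment is labelled NC, is the control, and the other groups are 1/7MC, 1/7MC+Pyr and 1/7MC+Pyr+FGF. Per its title the series concerns low feeder density, with added pyruvate and human basic FGF made as a recombinant protein, a factor common in stem cell media. What MC stands for, the doses and the source of the feeder cells are not given in the sources used here, all libraries come from 1 line, and replicates are not stated to be separate cultures, so p-values measure the spread between these libraries only.

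Serine is made from the glycolytic intermediate 3-phosphoglycerate in a short chain of reactions, an oxidation, a transamination that uses glutamate, and a dephosphorylation. Serine hydroxymethyltransferases then split serine into glycine and a one-carbon unit bound to tetrahydrofolate, and the MTHFD enzymes oxidise or reduce that unit in the cytosol and the mitochondria. The products feed the synthesis of purines and thymidylate and the methionine cycle, which proliferating cells such as embryonic stem cells draw on.

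Total counts ranged from 27373759 to 44440972 per library. MC replicates 2 and 3 stood apart from MC replicate 1: 5 entries of the table were at 0 in both and at 100 counts or more in all 10 other libraries, against 0 such entries for each of the other replicate pairs. A chi-square per gene was 3.28 between those 2 libraries, 67.6 and 66.0 between them and MC replicate 1, and 9.19 to 109 for the pairs of the other groups. Whether the 2 libraries were counted with other gene models or are closely related was not tested. Each comparison with MC is therefore repeated using MC replicate 1 by itself for MC, on the assumption that it varies like the other groups. With 1 MC library the standard errors (SE) of the 8 genes were wider, so a call lost there need not mean a smaller difference. For the 8 genes the MC libraries were close: MC replicate 1 was between 0.900 (MTHFD1L) and 1.04 (PHGDH) times the mean of the other two. Levels are given as CPM, counts scaled to library size. The summed level of 15 fibroblast and feeder markers was 5291 to 5624 CPM in MC, 17756 to 24673 for 1/7MC, 20906 to 31649 for 1/7MC+Pyr and 13706 to 19978 for 1/7MC+Pyr+FGF. That of 10 pluripotent stem cell markers was 4083 to 4243, 2500 to 2829, 4093 to 4371 and 3434 to 3882 in the same order, and that of 9 epithelial markers 2175 to 2683, 894 to 1054, 1600 to 1630 and 2058 to 2415. No marker of these lists was at 0 in all 12 libraries; 5 endothelial markers summed to 14.4 to 58.8 CPM and 5 blood markers to 0.843 to 2.60. In bulk RNA, fewer cells of a type and less RNA per cell cannot be told apart. The fibroblast and feeder markers were higher in every group outside MC, although the series title concerns low feeder density. Feeder is part of the list's name only, and which cells carry these transcripts was not tested.

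Corrected for gene length, as TPM (transcript counts scaled by length and by library), computed here from the deposited counts and lengths, the enzymes differed widely in level. PHGDH had the highest mean over the 12 libraries, 288 TPM, rank 536 among the genes tested. SHMT2 followed at 245 TPM and MTHFD1 at 123 TPM. MTHFD1L (67.2 TPM) and PSPH (63.0 TPM) lay next to each other, then came MTHFD2 (36.9 TPM) and PSAT1 (29.5 TPM). SHMT1 was far the lowest at 3.14 TPM, rank 10666. The spread across libraries ran nearly the other way: the highest CPM was 5.87 times the lowest for SHMT1, 2.86 times for PSAT1, 1.98 times for PSPH and 1.32 times for MTHFD1.

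**Figure D1:**
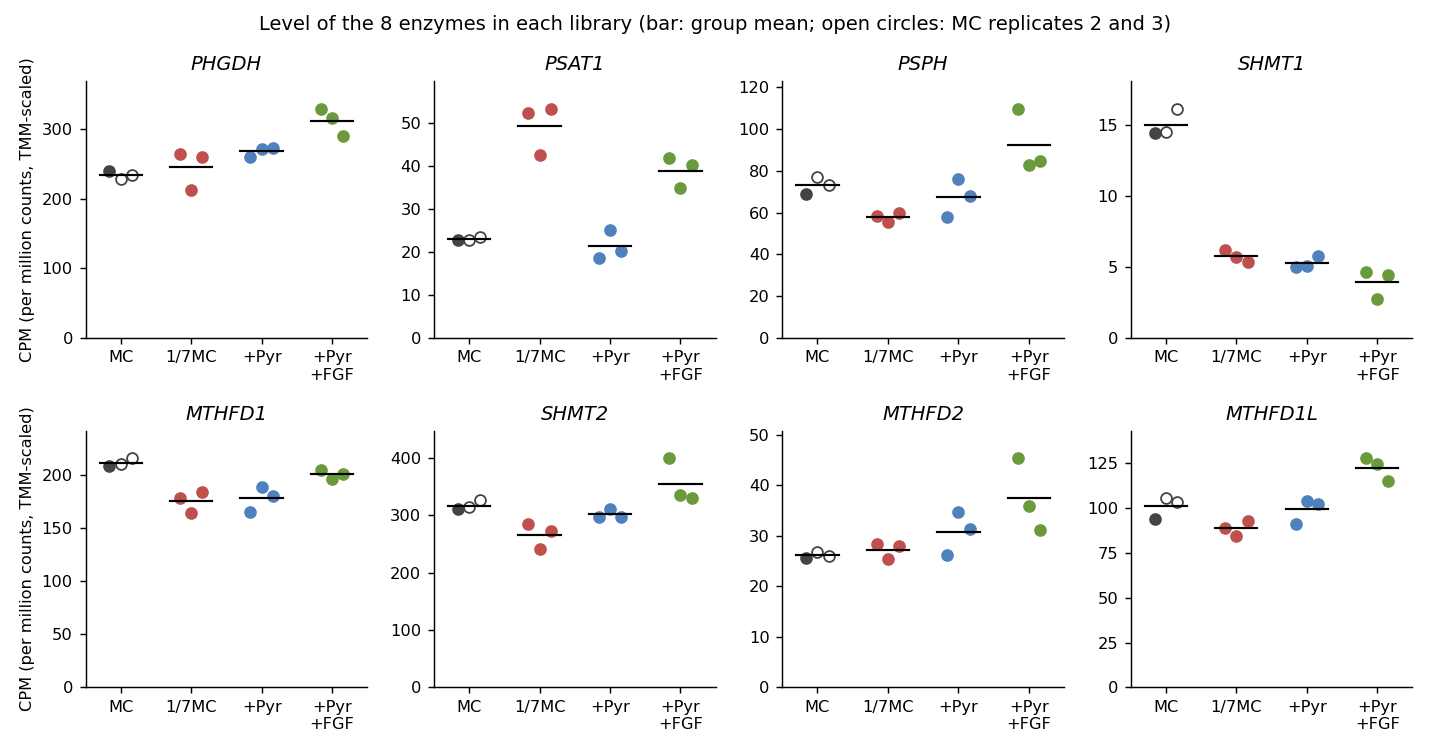
Each panel plots the CPM of 1 enzyme gene (vertical axis, from 0) in the 3 libraries of each group (horizontal axis); bars are group means and open circles are MC replicates 2 and 3. PSAT1 alternates between about the MC level and a higher one, from 18.6 to 53.3 CPM, SHMT1 lies at 14.4 to 16.2 CPM in MC and at 6.21 CPM or below elsewhere, and the other 6 genes span less than 2-fold.

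PSAT1 (Entrez 533044), the phosphoserine aminotransferase of the middle step, showed the widest swings of the serine synthesis genes. Its CPM in replicates 1, 2 and 3 was 22.7, 22.6 and 23.4 for MC, 52.3, 42.4 and 53.3 for 1/7MC, 18.6, 25.0 and 20.1 for 1/7MC+Pyr, and 41.8, 34.7 and 40.1 for 1/7MC+Pyr+FGF. All 1/7MC libraries were above all others, though only narrowly above 1/7MC+Pyr+FGF, and MC and 1/7MC+Pyr overlapped. PSAT1 rose in 1/7MC against MC, by 1.10 ± 0.13 (SE, n = 3 libraries per group) on the log2 scale (edgeR adjusted p = 2.61e-05). It fell in 1/7MC+Pyr against 1/7MC, with a log2 fold change of -1.22 ± 0.13 (edgeR adjusted p = 6.10e-05). It rose again in 1/7MC+Pyr+FGF against 1/7MC+Pyr, by 0.87 ± 0.13 (edgeR adjusted p = 0.0055). These comparisons share their middle groups, so they are not independent. Of the 15 fibroblast markers, 15 rose in 1/7MC against MC, 2 rose and 7 fell with pyruvate, and 2 fell and none rose with FGF over pyruvate; their part in the differences of PSAT1 was not tested. The log2 difference of PSAT1 from MC was, for 1/7MC+Pyr, -0.11 ± 0.13 (edgeR adjusted p = 0.554), and in 1/7MC+Pyr+FGF it stayed above MC by 0.76 ± 0.13 (edgeR adjusted p = 0.000959). Using MC replicate 1 alone, the rise in 1/7MC was 1.13 ± 0.20 (edgeR adjusted p = 0.000935) and that in 1/7MC+Pyr+FGF 0.76 ± 0.19 (edgeR adjusted p = 0.021). All 4 of these calls held when any 1 library was left out. The difference of 1/7MC+Pyr+FGF from 1/7MC, -0.34 ± 0.13, did not pass (edgeR adjusted p = 0.0641), but did without 1/7MC replicate 2 (0.0372). With MC replicate 1 alone in the fit it was -0.37. It also passed with a stricter low-count filter (edgeR adjusted p = 0.0447) and by DESeq2 (DESeq2 adjusted p = 0.0468). On the deposited signal rescaled to library size it passed too (limma adjusted p = 0.0105, pseudocount 1). Of 12 alternative fits, 7 left it uncalled.

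PHGDH (Entrez 505103), the dehydrogenase of the first step, had a CPM of 240, 229 and 234 for MC, 265, 212 and 259 for 1/7MC, 259, 272 and 273 for 1/7MC+Pyr, and 330, 316 and 290.4 for 1/7MC+Pyr+FGF. The 1/7MC+Pyr+FGF libraries lay above all 9 others. Its group means were in the order 312, 268, 246 and 234 CPM from 1/7MC+Pyr+FGF down to MC, and no neighbours in that order passed the test (edgeR adjusted p = 0.231, 0.401 and 0.591). PHGDH rose in 1/7MC+Pyr+FGF against 1/7MC by 0.35 ± 0.09 (edgeR adjusted p = 0.0162) and against MC by 0.41 ± 0.09 (edgeR adjusted p = 0.00555). The call against 1/7MC was lost without 1/7MC replicate 2 (0.0563) or 1/7MC+Pyr+FGF replicate 1 (0.0529), and 9 of 12 alternative fits kept it. That against MC was kept in 10 of 11. It was lost with MC replicate 1 alone, where the difference was 0.36 with a wider SE. The PSAT1 swings thus had no counterpart of similar size in the gene of the preceding step: against MC, the log2 difference in 1/7MC was 0.07 ± 0.09 for PHGDH.

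PSPH (Entrez 533630), the phosphatase that releases serine, was measured at 69.1, 77.0 and 73.0 CPM in MC, 58.6, 55.4 and 59.5 for 1/7MC, 58.0, 76.2 and 67.8 for 1/7MC+Pyr, and 110, 82.8 and 84.8 for 1/7MC+Pyr+FGF. The 1/7MC+Pyr+FGF libraries again lay above all others and 1/7MC lay below MC, while 1/7MC+Pyr overlapped both MC and 1/7MC. PSPH rose in 1/7MC+Pyr+FGF against 1/7MC by 0.68 ± 0.12 (edgeR adjusted p = 0.00178), a call kept without any 1 library. It fell in 1/7MC against MC, with a log2 fold change of -0.34 ± 0.12 (edgeR adjusted p = 0.0416). That call was lost without MC replicate 2 (0.133) or 3 (0.0921) or 1/7MC replicate 1 (0.0869), 2 (0.102) or 3 (0.0658). Of 11 alternative fits, 6 kept it. It was lost with MC replicate 1 alone, at -0.25 with a wider SE. The difference of 1/7MC+Pyr+FGF from 1/7MC+Pyr, 0.46 ± 0.12, did not pass (edgeR adjusted p = 0.072) and passed without 1/7MC+Pyr replicate 2 (0.0489). Against MC it was 0.34 ± 0.12 (edgeR adjusted p = 0.0523), and it passed without 1/7MC+Pyr+FGF replicate 2 (0.0344). It also passed by DESeq2 (DESeq2 adjusted p = 0.0437) and on the deposited signal rescaled to library size (limma adjusted p = 0.0305, pseudocount 1). Of 11 alternative fits, 8 left it uncalled.

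The 2 serine hydroxymethyltransferases catalyse the same reaction in different compartments. Both were called lower in 1/7MC against MC, with log2 fold changes of -1.39 for SHMT1 and -0.25 for SHMT2. Opposite calls came only in 1/7MC+Pyr+FGF against 1/7MC, at -0.54 and 0.42. SHMT1 (Entrez 509002), the cytosolic enzyme, had a CPM of 14.4, 14.5 and 16.2 for MC, 6.21, 5.67 and 5.34 for 1/7MC, 5.00, 5.06 and 5.79 for 1/7MC+Pyr, and 4.64, 2.75 and 4.42 for 1/7MC+Pyr+FGF, from 91 to 515 counts per library. Every MC library was more than 2-fold above every other library. SHMT1 fell in 1/7MC against MC, with a log2 fold change of -1.39 ± 0.17 (edgeR adjusted p = 4.34e-05), and was lower than MC by -1.51 ± 0.18 in 1/7MC+Pyr (edgeR adjusted p = 5.10e-05) and by -1.93 ± 0.18 in 1/7MC+Pyr+FGF (edgeR adjusted p = 8.99e-06). With MC replicate 1 alone these differences were -1.32 ± 0.23, -1.44 ± 0.24 and -1.88 ± 0.23, all still passing (edgeR adjusted p = 0.00108, 0.0013 and 0.000169). On the signal as deposited, which has no depth correction, with a pseudocount of 1 that understates changes of low genes, they were -0.31, -0.35 and -0.37. Of the 15 fibroblast markers 15, 14 and 14 were higher than MC in the same 3 groups, and of the 9 epithelial markers 9, 7 and 6 were lower; their part in the difference of SHMT1 was not tested. Pyruvate gave no change that passed for SHMT1 (-0.12 ± 0.18 against 1/7MC, edgeR adjusted p = 0.705). The difference of 1/7MC+Pyr+FGF from 1/7MC, -0.54 ± 0.18, passed (edgeR adjusted p = 0.0392), also in 10 of 12 alternative fits. It was lost without 1/7MC replicate 1 (0.119), 2 (0.0883) or 3 (0.0681) or 1/7MC+Pyr+FGF replicate 2 (0.0941). Between 1/7MC+Pyr+FGF and 1/7MC+Pyr the difference was -0.42 ± 0.18 (edgeR adjusted p = 0.233).

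SHMT2 (Entrez 507197), the mitochondrial enzyme, had a CPM of 310.3, 314 and 326 for MC, 285, 241 and 273 for 1/7MC, 297, 311 and 297 for 1/7MC+Pyr, and 399, 336 and 330.3 for 1/7MC+Pyr+FGF. The 1/7MC libraries were the lowest and the 1/7MC+Pyr+FGF libraries the highest, with no overlap with any other group, and MC and 1/7MC+Pyr overlapped between them. SHMT2 rose in 1/7MC+Pyr+FGF against 1/7MC by 0.42 ± 0.09 (edgeR adjusted p = 0.00625), without any 1 library too. Its fall in 1/7MC against MC, -0.25 ± 0.09 (edgeR adjusted p = 0.0441), was kept in 5 of 11 alternative fits. The call was lost without MC replicate 1 (0.0608), 2 (0.0981) or 3 (0.134), and without 1/7MC replicate 2 (0.128) or 3 (0.0659). With MC replicate 1 alone it was also lost, at -0.21 with a wider SE. With pyruvate the difference was 0.18 ± 0.09 from 1/7MC (edgeR adjusted p = 0.216) and -0.07 ± 0.09 from MC (edgeR adjusted p = 0.595).

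The ratio of SHMT2 to SHMT1 in TPM, a measure taken within each library, was 39.7 ± 1.5 (SD, n = 3) in MC, 87.5 ± 8.1 for 1/7MC, 108 ± 10 for 1/7MC+Pyr and 177 ± 46 for 1/7MC+Pyr+FGF. The ranges of the 4 groups did not overlap: 38.0 to 40.7, 79.9 to 96.0, 96.5 to 116 and 141 to 230. The step from 1/7MC to 1/7MC+Pyr is narrow, and 1/7MC+Pyr+FGF replicate 2, with the lowest SHMT1 CPM, holds the highest ratio. Most of the first step comes from SHMT1, since SHMT2 moved by -0.25 on the log2 scale and SHMT1 by -1.39. The ratio of PSAT1 to PHGDH was 0.0801 ± 0.0021 for MC, 0.164 ± 0.003 for 1/7MC, 0.0648 ± 0.0091 for 1/7MC+Pyr and 0.102 ± 0.012 for 1/7MC+Pyr+FGF, again with no overlap between groups. PSAT1 to PSPH went from 0.321 ± 0.019 in MC to 0.869 ± 0.076 for 1/7MC and back to 0.321 ± 0.017 for 1/7MC+Pyr.

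**Figure D2:**
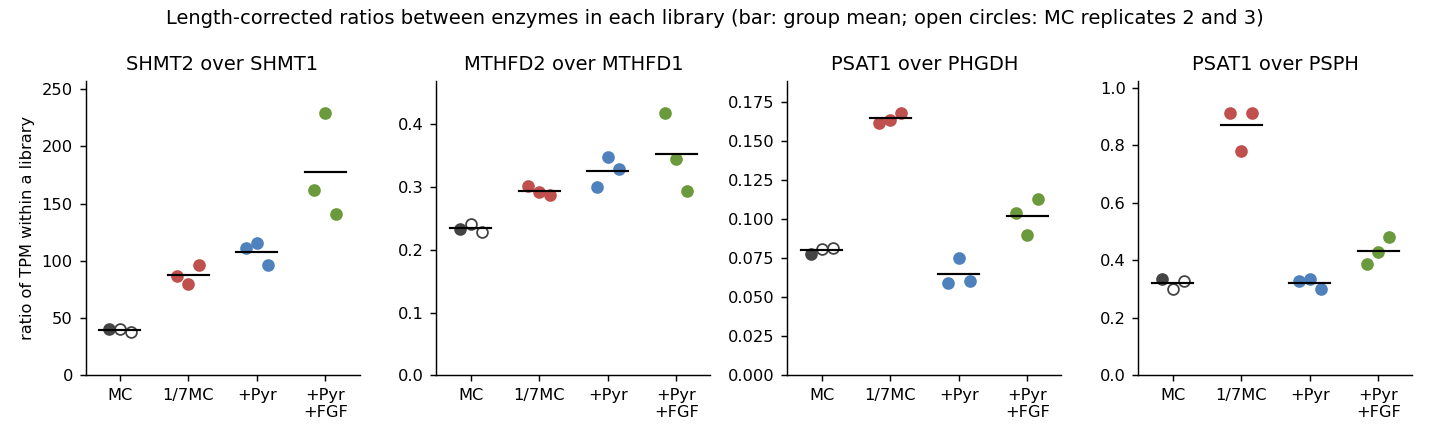
Each panel plots the ratio of the TPM of 2 enzymes (vertical axis, no unit, from 0) in the 3 libraries of each group; bars are group means and open circles are MC replicates 2 and 3. SHMT2 over SHMT1 climbs from 39.7 in MC to 177 in 1/7MC+Pyr+FGF on average, MTHFD2 over MTHFD1 from 0.234 to 0.352, and both PSAT1 ratios peak in 1/7MC.

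MTHFD1 (Entrez 534382) is the cytosolic enzyme that joins 3 activities on the one-carbon unit in 1 protein. Its CPM was 209, 210.1 and 216 for MC, 178, 164 and 184 for 1/7MC, 165, 189 and 180.2 for 1/7MC+Pyr, and 205, 197 and 201 for 1/7MC+Pyr+FGF. All MC libraries were above all others, and 1/7MC and 1/7MC+Pyr overlapped. MTHFD1 fell in 1/7MC against MC, with a log2 fold change of -0.27 ± 0.08 (edgeR adjusted p = 0.0142), and was lower in 1/7MC+Pyr than in MC by -0.25 ± 0.08 (edgeR adjusted p = 0.0329). With MC replicate 1 alone neither passed, at -0.24 and -0.21 with wider SEs. The first was lost without MC replicate 3 (0.0578), and 8 of 11 alternative fits kept it. The second was lost without MC replicate 2 (0.0959) or 3 (0.118) or 1/7MC+Pyr replicate 1 (0.0914) or 3 (0.0842). It was kept in 4 of 11 alternative fits. MTHFD1 of 1/7MC+Pyr+FGF differed from 1/7MC by 0.19 ± 0.08 (edgeR adjusted p = 0.087) and from MC by -0.08 ± 0.08 (edgeR adjusted p = 0.486). The difference from 1/7MC passed by DESeq2 (DESeq2 adjusted p = 0.045), while 11 of 12 alternative fits left it uncalled.

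MTHFD2 (Entrez 517539), the mitochondrial dehydrogenase and cyclohydrolase, had a CPM of 25.7, 26.9 and 26.0 for MC, 28.4, 25.3 and 27.9 for 1/7MC, 26.2, 34.7 and 31.4 for 1/7MC+Pyr, and 45.4, 35.8 and 31.2 for 1/7MC+Pyr+FGF. MC and 1/7MC overlapped, and 1/7MC+Pyr+FGF lay above both but overlapped 1/7MC+Pyr. MTHFD2 rose in 1/7MC+Pyr+FGF against 1/7MC by 0.46 ± 0.14 (edgeR adjusted p = 0.0272) and against MC by 0.52 ± 0.14 (edgeR adjusted p = 0.014). The first call was lost without 1/7MC replicate 1 (0.0557), 2 (0.0985) or 3 (0.0653) or 1/7MC+Pyr+FGF replicate 1 (0.115, when the difference was 0.30). Of 12 alternative fits, 8 kept the first call. The second was lost without 1/7MC+Pyr+FGF replicate 1 (0.0575), and 9 of 11 alternative fits kept it. It was lost with MC replicate 1 alone, at 0.53 with a wider SE.

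MTHFD1L (Entrez 534296), the mitochondrial formyl-tetrahydrofolate synthetase that releases formate, had a CPM of 94.1, 106 and 103 for MC, 89.0, 84.2 and 92.7 for 1/7MC, 91.2, 104 and 103 for 1/7MC+Pyr, and 128, 125 and 115 for 1/7MC+Pyr+FGF. The 1/7MC+Pyr+FGF libraries lay above all others. MTHFD1L rose in 1/7MC+Pyr+FGF against 1/7MC by 0.47 ± 0.09 (edgeR adjusted p = 0.00192), a call kept without any 1 library. Against MC it rose by 0.28 ± 0.09 (edgeR adjusted p = 0.0284), a call kept in 8 of 11 alternative fits. That call was lost without MC replicate 1 (0.0867), 2 (0.0544) or 3 (0.0681), and without 1/7MC+Pyr+FGF replicate 1 (0.0777) or 2 (0.057). With MC replicate 1 alone it was lost too, at 0.36 with a wider SE. Against 1/7MC+Pyr the difference was 0.30 ± 0.09 (edgeR adjusted p = 0.0852), and in 1/7MC against MC it was -0.19 ± 0.09 (edgeR adjusted p = 0.0914). The ratio of MTHFD1L to MTHFD1 in TPM was 0.486 ± 0.027 for MC, 0.513 ± 0.008 for 1/7MC, 0.566 ± 0.010 for 1/7MC+Pyr and 0.620 ± 0.033 for 1/7MC+Pyr+FGF.

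Read by comparison, 1 of the 8 genes (PSAT1) rose in 1/7MC against MC and 4 fell (PSPH, SHMT1, SHMT2 and MTHFD1), beside 23.7% of all genes tested that rose and 21.3% that fell. The median log2 fold change was -0.22 over the 8 genes and 0.00 over all genes. MC replicate 1 alone left PSAT1 higher and SHMT1 lower, beside 14% and 9.96% of all genes, and the median was -0.14. The count of 4 fell to 2 without MC replicate 2 or 1/7MC replicate 2 or 3, and to 1 without MC replicate 3. SHMT2 was not called without MC replicate 1, nor PSPH without 1/7MC replicate 1, so no such fit kept all 4. In the same comparison all 15 fibroblast markers rose, and 7 of 9 pluripotency and 9 of 9 epithelial markers fell; their part in the enzymes' differences was not tested.

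In 1/7MC+Pyr against 1/7MC none of the 8 rose and PSAT1 alone fell, beside 8.08% of all genes that rose and 10.1% that fell. No gene rose by DESeq2 either, and edgeR gave 0 before adjustment (p under 0.05). The median over the 8 was 0.14, against -0.01 over all genes, and the 6 genes other than PSAT1 and SHMT1 had differences of 0.02 to 0.22, none of which passed. In the same comparison 7 of 9 pluripotency markers tested rose, and of the 15 fibroblast markers 2 rose and 7 fell. Of the 9 epithelial markers 7 rose and none fell. The part of these markers in the enzymes' differences was not tested.

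In 1/7MC+Pyr+FGF against 1/7MC+Pyr, PSAT1 rose and none fell, beside 0.639% of all genes that rose and 2.12% that fell. For 7 of the 8 the libraries of the 2 groups did not overlap, 6 above and SHMT1 below, beside 9.7% of all genes above and 11.8% below. At an unadjusted p under 0.05 edgeR gave 6 higher and 1 lower, beside 8.46% and 10.4% of all genes. DESeq2 gave 3 higher (PSAT1, PSPH and MTHFD1L) and 0 lower, beside 1.85% and 4.17%. The median was 0.26, against 0.01 over all genes. Without 1/7MC+Pyr replicate 2, 2 genes rose (PSAT1 and PSPH). Of the 9 epithelial markers 2 rose and 3 fell here, while 2 of 15 fibroblast and 1 of 9 pluripotency markers fell and none rose. The part of these markers in the enzymes' differences was not tested.

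In 1/7MC+Pyr+FGF against 1/7MC, 5 rose (PHGDH, PSPH, SHMT2, MTHFD2 and MTHFD1L) and 1 fell (SHMT1), beside 11.9% and 15.7% of all genes; the median was 0.38, against 0.01 over all genes. The libraries of the 2 groups did not overlap for any of the 8 genes, 6 above and 2 below, beside 21.5% of all genes above and 24.5% below. The count of 5 was 3 without 1/7MC replicate 2 or 1/7MC+Pyr+FGF replicate 1, and MTHFD2 was also lost without 1/7MC replicate 1 or 3. SHMT1 was not called without 1/7MC replicate 1, 2 or 3 or 1/7MC+Pyr+FGF replicate 2. Leaving out 1/7MC replicate 2, PSAT1 was called lower instead. In this comparison 1 fibroblast marker of 15 rose and 8 fell, 7 of 9 pluripotency markers rose, and of 9 epithelial markers 5 rose and 2 fell. How far these markers take part in the differences was not tested.

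Against MC, none of the 8 rose in 1/7MC+Pyr and 2 fell (SHMT1 and MTHFD1), beside 15.2% and 13.2% of all genes (0 rises by DESeq2, and by edgeR before adjustment). SHMT1 alone fell against MC replicate 1, beside 6.56% of all genes that rose and 3.15% that fell. The count of 2 was 1 without MC replicate 2 or 3 or 1/7MC+Pyr replicate 1 or 3. For 1/7MC+Pyr+FGF, 4 rose (PHGDH, PSAT1, MTHFD2 and MTHFD1L) and SHMT1 fell, beside 17.1% and 15.4% of all genes. Against MC replicate 1 PSAT1 rose and SHMT1 fell, beside 5.86% and 6.13%, and the count of 4 was 2 without 1/7MC+Pyr+FGF replicate 1. For 1/7MC+Pyr+FGF, MTHFD1L was also lost without MC replicate 1, 2 or 3 or 1/7MC+Pyr+FGF replicate 2. In each of these comparisons with MC 14 of 15 fibroblast markers were higher than MC, and 7 and 6 of 9 epithelial markers were lower. Their part in the enzymes' differences was not tested.

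**Figure D3:**
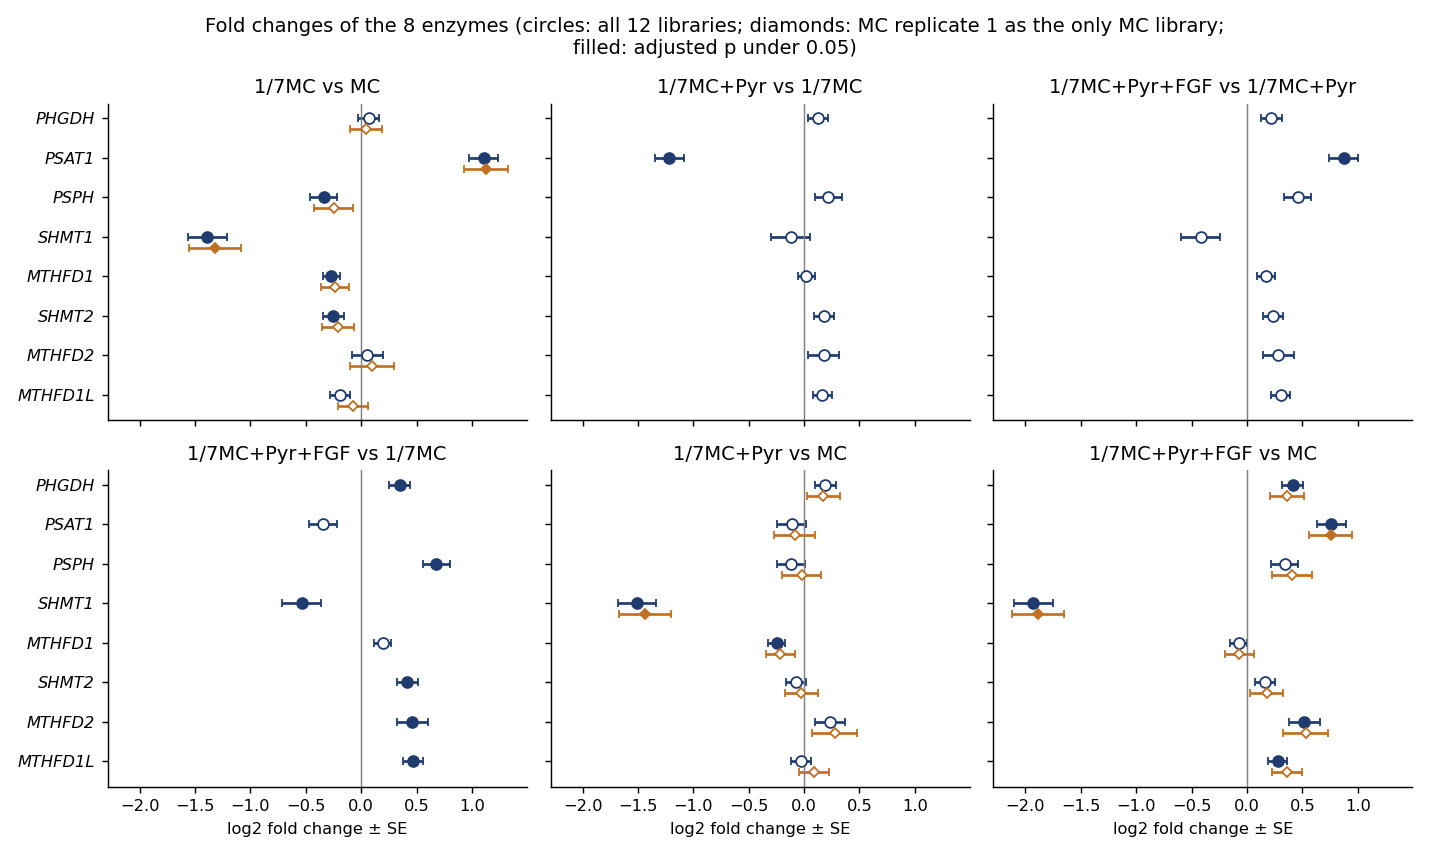
Each panel is 1 comparison, with the log2 fold change and its SE (horizontal axis) for each of the 8 genes (vertical axis); circles are from all 12 libraries, diamonds from the fit in which MC is its replicate 1 alone, and filled symbols have an adjusted p under 0.05. PSAT1 and SHMT1 lie farthest from 0, and 5 genes are filled to the right of 0 in 1/7MC+Pyr+FGF against 1/7MC.

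Summed by role in TPM, the 3 serine synthesis genes gave 330.1 ± 20.5 (SD, n = 3) in MC, 373 ± 26 for 1/7MC, 381 ± 12 for 1/7MC+Pyr and 438 ± 22 for 1/7MC+Pyr+FGF, sums in which PHGDH weighs most. The mitochondrial genes SHMT2, MTHFD2 and MTHFD1L summed to 340.0 ± 9.9, 312 ± 10, 353 ± 7 and 392 ± 24, lowest in 1/7MC. The cytosolic pair SHMT1 and MTHFD1 summed to 139 ± 6, 120 ± 4, 121 ± 5 and 126 ± 5, highest in MC.

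Across the 10 libraries other than MC replicates 2 and 3, the log2 CPM of PSPH and MTHFD1L had Pearson r = 0.94, PSPH and SHMT2 0.93, and PHGDH and MTHFD1L 0.92 (0.77 over all 12). PSAT1 correlated with each of the other 7 at r between -0.26 and 0.13, and SHMT1 at r between -0.59 and 0.12. Over all 12 libraries these ranges were -0.43 to 0.24 and -0.69 to 0.48. The libraries fall into 4 groups and share their depth scaling, so these values describe the plot of levels and carry no test. Over the same 10 libraries the genes most like PSAT1 were HSF2 (r = 0.97, but 0.85 over all 12), PRKD1 (0.97) and MPC1 (0.96, but 0.87 over all 12). Those most like SHMT1 were PPP1R1B (0.97), DND1 (0.95) and TNNI3K (0.95). SHMT2 was most like MRPS5 (0.99), TOMM40 (0.99) and POLR2C (0.99), PSPH like RTCB (0.99), ODC1 (0.99) and DHX15 (0.98), and PHGDH like NOB1 (0.98), AURKA (0.96) and CHCHD4 (0.95). MTHFD1 was most like LNP1, SHQ1 and TRA2B (0.97 each, the last 0.88 over all 12 libraries). MTHFD2 was most like C28H1orf131 (0.97, but 0.82 over all 12), NUFIP1 (0.97) and HSPA14 (0.96). MTHFD1L was most like PANK1 (0.99, but 0.54 over all 12 libraries), FAR2 (0.98) and ACAT2 (0.98).

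Among 13 other folate enzymes and transporters tested, 3 rose and 4 fell in 1/7MC against MC, beside 23.7% and 21.3% of all genes. In 1/7MC+Pyr against 1/7MC, 1 rose and 3 fell, beside 8.08% and 10.1%. In 1/7MC+Pyr+FGF against 1/7MC+Pyr, 1 rose and none fell by edgeR adjusted p, beside 0.639% and 2.12%. By DESeq2 none fell either, and 1 did at an unadjusted p. MTHFD2L, a mitochondrial relative of MTHFD2, had a CPM of 2.63, 2.39 and 1.93 for MC, 5.33, 5.91 and 7.59 for 1/7MC, 3.73, 3.08 and 3.23 for 1/7MC+Pyr and 3.37, 4.51 and 3.88 for 1/7MC+Pyr+FGF. Its 1/7MC libraries were above all others: it rose by 1.43 ± 0.19 against MC (edgeR adjusted p = 7.21e-05; 0.00516 with MC replicate 1 alone) and fell with pyruvate, at -0.91 ± 0.19 (edgeR adjusted p = 0.00512). ALDH1L2, a mitochondrial enzyme that oxidises formyl-tetrahydrofolate, had a CPM of 7.70, 7.75 and 7.49, then 11.7, 12.9 and 11.6, then 13.9, 17.3 and 15.4, then 24.1, 25.7 and 20.1 in the same order of groups, with no overlap between them. ALDH1L2 rose by 0.66 ± 0.12 in 1/7MC against MC (edgeR adjusted p = 0.00095) and by 0.95 ± 0.12 in 1/7MC+Pyr+FGF against 1/7MC (edgeR adjusted p = 0.000135). Its rise of 0.58 ± 0.12 over 1/7MC+Pyr (edgeR adjusted p = 0.0239) was lost without 1/7MC+Pyr replicate 1 (0.103) or 3 (0.0957) or 1/7MC+Pyr+FGF replicate 1 (0.0966) or 2 (0.0626).

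TYMS, the thymidylate synthase, fell in 1/7MC against MC, with a log2 fold change of -0.51 ± 0.11 (edgeR adjusted p = 0.00237), but did not pass with MC replicate 1 alone (0.0591), when edgeR called no gene of the list lower and 3 higher. The 4 genes of the list that fell were 2 without MC replicate 2 or 3 or 1/7MC replicate 1 or 2. GGH, which trims folate polyglutamates, rose by 0.57 ± 0.14 in 1/7MC (edgeR adjusted p = 0.00514) and fell with pyruvate, at -0.57 ± 0.14 (edgeR adjusted p = 0.0144, lost without 1/7MC replicate 1, 0.0626, or 1/7MC+Pyr replicate 3, 0.0721). The 3 genes that fell with pyruvate were 1 without 1/7MC replicate 1 or 1/7MC+Pyr replicate 3, and 2 when 1/7MC+Pyr replicate 2 or 1/7MC replicate 2 or 3 was left out; the 1 that rose was not called without 1/7MC replicate 2 or 3 or 1/7MC+Pyr replicate 2.

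Of 12 genes of glycine cleavage and serine breakdown tested, 1 rose and 3 fell in 1/7MC against MC (2 rose without MC replicate 1). Among all genes 23.7% rose and 21.3% fell there, 8.08% and 10.1% with pyruvate, and 0.639% and 2.12% with FGF over pyruvate. MC replicate 1 alone also gave 1 and 3, but not all the same genes. GCAT fell with all 12 libraries, at -0.87 ± 0.15 (edgeR adjusted p = 0.000585), and not with MC replicate 1 alone, at -0.44 ± 0.16 (0.0588). GNMT was at 0.01 ± 0.54 with all 12 (edgeR adjusted p = 0.991) and fell with MC replicate 1 alone, at -1.16 ± 0.19 (0.000587). These 2 genes were named after their values were seen. With pyruvate 2 fell and none rose (1 before adjustment, 0 by DESeq2), and a single one fell without any 1 library other than 1/7MC+Pyr replicate 1. With FGF added to pyruvate 1 fell and none rose (2 before adjustment, 0 by DESeq2). GLDC, the decarboxylase of the mitochondrial glycine cleavage system, had a CPM of 55.0, 55.9 and 62.7 for MC and 33.6, 35.0 and 33.5 for 1/7MC, with 36.6, 41.1 and 39.6 for 1/7MC+Pyr and 36.9, 34.7 and 33.9 for 1/7MC+Pyr+FGF. Every library outside MC was below MC, and GLDC fell in 1/7MC with a log2 fold change of -0.77 ± 0.09 (edgeR adjusted p = 2.3e-05). SDSL, a relative of serine dehydratase, fell by 2.33 ± 0.32 on the log2 scale (edgeR adjusted p = 9.03e-05). SARDH, which turns sarcosine into glycine and a one-carbon unit, was at 1.29 to 1.63 CPM in MC, 9.21 to 11.4 for 1/7MC, 4.63 to 6.13 for 1/7MC+Pyr and 2.06 to 3.63 for 1/7MC+Pyr+FGF. SARDH rose by 2.79 ± 0.22 in 1/7MC (edgeR adjusted p = 1.23e-06) and fell with pyruvate, at -0.91 ± 0.20 (edgeR adjusted p = 0.0082). Its further fall with FGF, -0.98 ± 0.21 (edgeR adjusted p = 0.0306), was lost without 1/7MC+Pyr replicate 1 (0.131) or 3 (0.0879) or 1/7MC+Pyr+FGF replicate 1 (0.138) or 2 (0.0698).

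Serine and glycine transporters were counted as 2 higher and 3 lower of 11 in 1/7MC against MC, beside 23.7% and 21.3% of all genes. In 1/7MC+Pyr against 1/7MC, 4 were higher and 0 lower, beside 8.08% and 10.1% (1 lower at an unadjusted p and by DESeq2). The 2 that rose over MC were 1 without MC replicate 2 or 3 or 1/7MC replicate 2 or 3 and 3 without MC replicate 1, and with MC replicate 1 alone 1 rose and 1 fell. SLC38A5, a carrier of serine, glycine and glutamine, was at 45.4 to 52.2 CPM in MC, 28.2 to 33.8 for 1/7MC, 61.0 to 80.9 for 1/7MC+Pyr and 62.0 to 93.2 for 1/7MC+Pyr+FGF. SLC38A5 fell in 1/7MC, at -0.65 ± 0.15 (edgeR adjusted p = 0.00389; 0.0896 with MC replicate 1 alone), and rose with pyruvate by 1.19 ± 0.15 (edgeR adjusted p = 0.000235). SLC1A5, a carrier of glutamine and small neutral amino acids, fell in 1/7MC, at -0.70 ± 0.17 (edgeR adjusted p = 0.005; 0.0622 with MC replicate 1 alone), and rose with pyruvate by 0.80 ± 0.17 (edgeR adjusted p = 0.00651). SLC1A4, a carrier of serine and alanine, had a difference of 0.07 ± 0.17 for 1/7MC and of 0.60 ± 0.17 with pyruvate (edgeR adjusted p = 0.0299), the latter lost without 1/7MC replicate 1 (0.1) or 3 (0.121) or 1/7MC+Pyr replicate 1 (0.0935) or 3 (0.0978). The 4 that rose with pyruvate were 2 without 1/7MC replicate 1 or 3 or 1/7MC+Pyr replicate 3. SFXN3, a mitochondrial serine carrier, rose by 0.77 ± 0.12 in 1/7MC against MC (edgeR adjusted p = 0.000175). With FGF added to pyruvate, edgeR called 0 of the 11 in either direction, also at an unadjusted p, and DESeq2 gave 0.

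**Figure D4:**
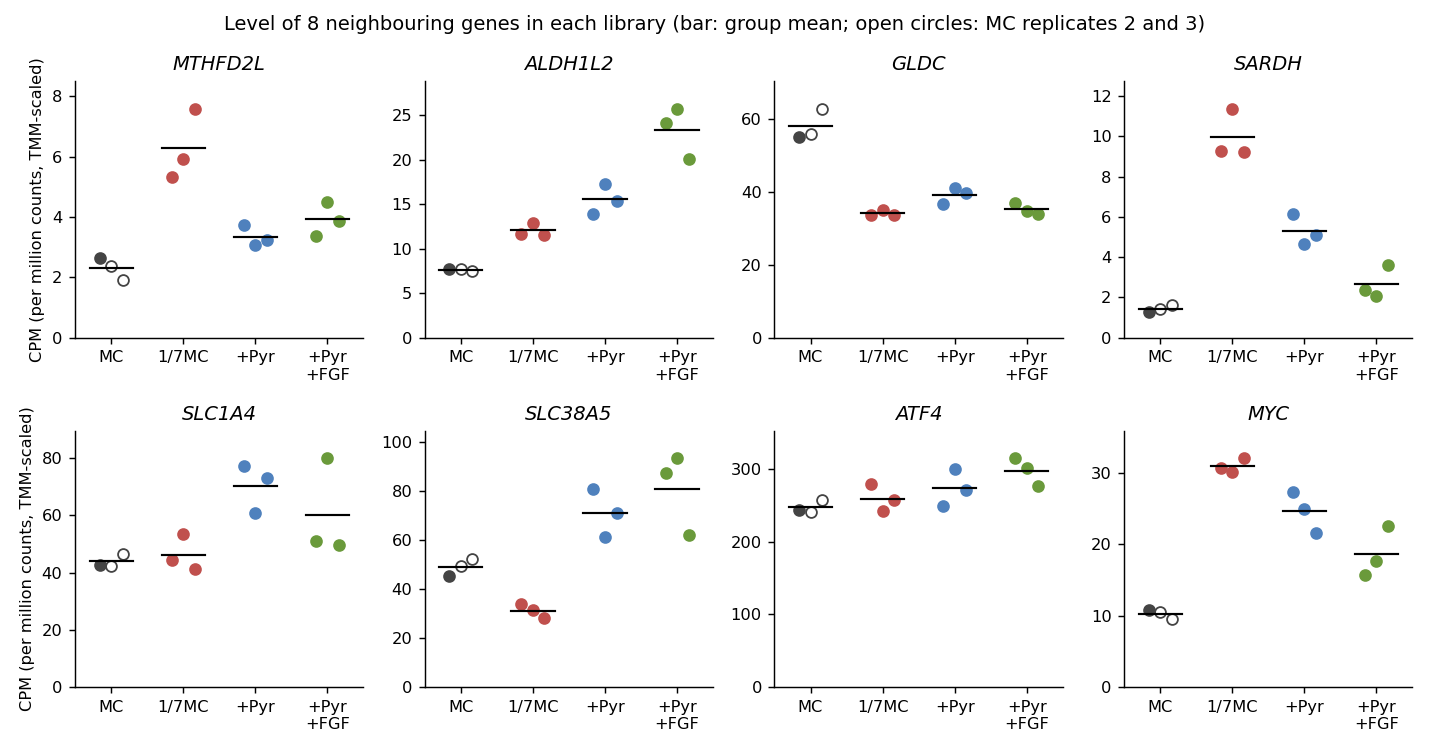
Each panel plots the CPM of 1 neighbouring gene (vertical axis, from 0) in the 3 libraries of each group; bars are group means and open circles are MC replicates 2 and 3. MTHFD2L and SARDH are highest in 1/7MC, ALDH1L2 climbs from 7.49 to 25.7 CPM across the groups, GLDC is highest in MC, SLC38A5 is lowest in 1/7MC, and MYC is lowest in MC.

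ATF4 is a transcription factor of the amino acid response that is known to drive PHGDH, PSAT1, PSPH, SHMT2, MTHFD2 and ASNS, and it is controlled largely at translation. Its own mRNA had a CPM of 243, 240.2 and 257 for MC, 278, 242 and 257 for 1/7MC, 248, 299 and 271 for 1/7MC+Pyr, and 314, 301 and 276 for 1/7MC+Pyr+FGF, and it passed in none of the 3 stepwise comparisons (0.07 ± 0.09, 0.08 ± 0.09 and 0.12 ± 0.09; edgeR adjusted p = 0.585, 0.633 and 0.481). ASNS, the asparagine synthetase, fell in 1/7MC against MC, at -0.42 ± 0.12 (edgeR adjusted p = 0.0131; 0.205 with MC replicate 1 alone). With pyruvate the difference of ASNS was 0.34 ± 0.12 (edgeR adjusted p = 0.0727; 0.0274 without 1/7MC+Pyr replicate 1). For ATF4 mRNA, all 1/7MC+Pyr+FGF libraries (276 to 314 CPM) were above all MC libraries (240.2 to 257 CPM), as for 23% of all genes. They overlapped those of 1/7MC and of 1/7MC+Pyr. The part of ATF4 in the enzymes' differences was not tested.

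Of 20 genes of the list of ATF4 and amino acid stress, 3 rose and 7 fell in 1/7MC against MC (1 and 4 with MC replicate 1 alone), and 6 rose and 1 fell in 1/7MC+Pyr against 1/7MC. Over all genes the shares were 23.7% and 21.3% against MC, 8.08% and 10.1% with pyruvate, and 0.639% and 2.12% with FGF over pyruvate. The 3 of the list that rose against MC were 2 without any 1 library other than MC replicate 1, with a count of 3 without that one. Those that rose with pyruvate were 3 without 1/7MC replicate 1 or 3 or 1/7MC+Pyr replicate 3, and 4 when 1/7MC+Pyr replicate 1 was left out; the 1 that fell was not called without 1/7MC replicate 1 or 1/7MC+Pyr replicate 3. ATF3, a stress-induced transcription factor, fell in 1/7MC, at -1.89 ± 0.16 (edgeR adjusted p = 1.94e-06), and rose with pyruvate by 0.69 ± 0.16 (edgeR adjusted p = 0.0102). DDIT4, an inhibitor of mTOR signalling, fell, at -0.76 ± 0.09 (edgeR adjusted p = 2.68e-05), and NUPR1, a stress-induced chromatin protein, rose by 2.79 ± 0.34 (edgeR adjusted p = 3.09e-05). SESN2, a leucine sensor, rose with pyruvate by 0.53 ± 0.10 (edgeR adjusted p = 0.00266), and EIF2AK3, the PERK kinase that acts ahead of ATF4, by 0.66 ± 0.15 (edgeR adjusted p = 0.00955). TRIB3, a pseudokinase target of ATF4, was the only gene of the 20 that rose with FGF added to pyruvate (0.94 ± 0.22, edgeR adjusted p = 0.0385) and none fell (1 at an unadjusted p, 0 by DESeq2). TRIB3 was lost without 1/7MC+Pyr replicate 1 (0.105), 2 (0.0782) or 3 (0.155) or 1/7MC+Pyr+FGF replicate 1 (0.14) or 2 (0.0829).

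Of 9 regulators linked to serine synthesis genes, 1 rose and 5 fell in 1/7MC against MC (1 and 3 with MC replicate 1 alone, and 2 rose without MC replicate 1). Shares of all genes were 23.7% higher and 21.3% lower there, 8.08% and 10.1% with pyruvate, and 0.639% and 2.12% with FGF over pyruvate. With pyruvate 1 regulator rose and none fell (1 before adjustment, 0 by DESeq2). The 1 was not called without 1/7MC replicate 2 or 3 or 1/7MC+Pyr replicate 1 or 3. With FGF added to pyruvate edgeR called none in either direction (1 higher and 1 lower before adjustment, 1 and 0 by DESeq2), and 1 fell without 1/7MC+Pyr+FGF replicate 3. MYC, a growth-driving transcription factor, had a CPM of 10.8, 10.5 and 9.64 for MC, 30.7, 30.1 and 32.0 for 1/7MC, 27.3, 25.0 and 21.7 for 1/7MC+Pyr, and 15.7, 17.7 and 22.6 for 1/7MC+Pyr+FGF. It rose by 1.58 ± 0.14 in 1/7MC against MC (edgeR adjusted p = 2.31e-06) and was lower in 1/7MC+Pyr+FGF than in 1/7MC, at -0.73 ± 0.13 (edgeR adjusted p = 0.00185). Its differences at the 2 single steps between, -0.33 ± 0.13 and -0.40 ± 0.13, did not pass (edgeR adjusted p = 0.113 and 0.136, the latter 0.0428 without 1/7MC+Pyr+FGF replicate 3). MYCN, its paralog, had a difference of -0.37 ± 0.14 in 1/7MC against MC (edgeR adjusted p = 0.0451), but of 0.03 with MC replicate 1 alone (0.917), and the call was also lost without MC replicate 2 (0.179) or 3 (0.165) or 1/7MC replicate 1 (0.0619), 2 (0.127) or 3 (0.0772). EHMT2, a histone methyltransferase, fell, at -0.61 ± 0.08 (edgeR adjusted p = 7.51e-05), and so did PKM, the pyruvate kinase, at -0.53 ± 0.08 (edgeR adjusted p = 0.000187).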

How the data were processed

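Poly-A RNA libraries were made with a NEBNext Ultra kit, per the labels' protocols; no strand step is stated, which leaves genes that overlap, run antisense or have near copies uncertain. The submitters' processing notes name fastp 0.19.7, HISAT2 2.1.0, Subread 2.0, featureCounts and the build bosTau9; settings and annotation are not given in the sources used here. Raw whole-number counts per gene, not normalised by the authors, were deposited. The signal in another deposited table, named TPM, equals count over length times 4.94 in all 12 libraries, has column sums of 66798 to 118022 and no depth correction, so it served as an alternative only. Rows sharing an Ensembl or Entrez identifier (400, 1.07% to 1.40% of counts) were left out; Entrez identifiers matched 19195 rows to symbols in RefSeq's ARS-UCD2.0 table, used for names only.

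CPM used TMM factors (0.968 to 1.04). Counts that passed filterByExpr were tested in edgeR 4.0.16 (R 4.3.3), quasi-likelihood F test, the 4 groups sharing one estimate of spread; adjusted p is Benjamini-Hochberg over all 13920 genes (14361 where MC is its replicate 1), with 0.05 as threshold. Every adjusted p in the text, bare values after "without" included, is from this test unless DESeq2 or limma is named. A positive fold change means that the first group named is higher. Its SE is its absolute size over the square root of the F statistic. That SE rests on the spread shared by all groups of the fit, not on the compared libraries alone. Correlations used a prior count of 2. Alternatives used DESeq2 1.42.0 and limma 3.58.1; the test code was checked on simulated data. Figures used Python 3.11.15 and matplotlib 3.10.9. The enzymes and gene lists were chosen with earlier results of these data known. Named genes beside the 8 are a panel of 11, some of which are not reported here, and, per list and stepwise comparison, up to 3 with the smallest adjusted p under 0.05.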

Additional observations from a re-analysis of the deposited data

How the results depend on the processing

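Over the 48 results for the 8 enzymes (6 comparisons each), alternatives gave 840 values. Of these 755 stayed on the same side of the threshold, 69 lost a call, 16 gained one and none reversed a call. Among the 755, 12 uncalled values changed sign. For other named genes the 3657 values split into 3318, 304, 34 and 1. The 1 reversal was MYCN in 1/7MC against MC, -0.37 with all 12 libraries and 0.0289 with MC replicate 1 alone (edgeR adjusted p = 0.917). The rises and falls of PSAT1 kept their calls in all alternatives, except the rise with FGF over pyruvate on the signal as deposited (limma adjusted p = 0.0525), and so did the falls of SHMT1 against MC. Those falls, -1.39, -1.51 and -1.93, shrank to -1.03, -1.12 and -1.48 on the rescaled signal and -0.31, -0.35 and -0.37 on the signal as deposited (limma, pseudocount 1). The cause of the changes below was not tested.

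Counts that moved by over 1.5 times are given as enzymes or as all genes. In 1/7MC against MC, 4 enzymes and 2965 genes were lower and 3303 genes higher. MC replicate 1 alone gave 1 enzyme and 1431 genes lower and 2007 higher. The rescaled signal (limma) gave 2 enzymes lower at pseudocount 1 and 1 at 0.1, and the signal as deposited 1 enzyme and 1311 genes. Leaving out 1 library gave 1 to 3 enzymes. In 1/7MC+Pyr against 1/7MC, 1125 genes were higher and 1400 lower, 224 higher on the signal as deposited, and leaving out 1 library gave 578 to 1100 higher and 825 to 1236 lower. For 1/7MC+Pyr+FGF against 1/7MC+Pyr, 1 enzyme and 89 genes were higher and 295 genes lower. DESeq2 gave 3 enzymes and 263 genes higher and 594 lower. The rescaled signal gave 50 or 40 genes higher, and the signal as deposited 0 enzymes, 43 genes higher and 29 lower. Leaving out 1 library gave 1 to 2 enzymes and from 33 to 94 genes higher and from 94 to 345 lower. For 1/7MC+Pyr+FGF against 1/7MC, 5 enzymes and 1656 genes were higher and 1 enzyme and 2186 genes lower. Lower enzymes numbered 2 with MC replicate 1 alone, DESeq2 or the stricter filter and 0 with only the 2 groups. The rescaled signal gave 3 higher and 2 lower, with 865 or 867 genes higher, and the signal as deposited 2 and 0, with 728 genes higher and 1033 lower. Leaving out 1 library gave 3 to 5 enzymes higher and 0 to 1 lower, and 1057 to 1370 genes higher. For 1/7MC+Pyr against MC, 2 enzymes were lower, and 2115 genes higher and 1834 lower. MC replicate 1 alone gave 1 enzyme lower, 942 genes higher and 452 lower, and no filter or only the 2 groups 1 enzyme. The rescaled signal gave 1 enzyme higher and 1 lower, with 1203 genes lower at pseudocount 0.1, and the signal as deposited 1 enzyme lower, 809 genes higher and 825 lower. Leaving out 1 library gave 1 to 2 enzymes and 1103 to 2174 genes lower. For 1/7MC+Pyr+FGF against MC, 4 enzymes were higher, and 2377 genes higher and 2150 lower. MC replicate 1 alone gave 1 enzyme, 842 and 881 genes, only the 2 groups 1472 genes higher, and the signal as deposited 2 enzymes and 725 genes lower. Leaving out 1 library gave 2 to 4 enzymes and 1544 to 3024 genes higher.

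The share of called genes that were higher moved by over 10 percentage points in 1/7MC against MC (52.7%; 63.4% and 63.8% on the rescaled signal, 66.5% as deposited) and in 1/7MC+Pyr against 1/7MC (44.6%; 17.6% as deposited). It also moved for 1/7MC+Pyr+FGF against 1/7MC+Pyr (23.2%; 59.7% as deposited), against 1/7MC (43.1%; 25.4% and 25.8% rescaled) and against MC (52.5%; 70.7% as deposited), and for 1/7MC+Pyr against MC (53.6%; 64.3% and 66.8% rescaled, 67.6% with MC replicate 1 alone). Without depth scaling the median of all genes shifted by -0.11, 0.20 and 0.18 in 1/7MC+Pyr against 1/7MC, 1/7MC+Pyr+FGF against 1/7MC+Pyr and 1/7MC+Pyr+FGF against MC. On the rescaled signal at pseudocount 1 it shifted by -0.10 in 1/7MC+Pyr+FGF against 1/7MC+Pyr and also against 1/7MC. There it shifted by 0.09 and 0.08 in 1/7MC and 1/7MC+Pyr against MC, and by -0.003 in 1/7MC+Pyr against 1/7MC. For 1/7MC+Pyr+FGF against MC it was -0.015.

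Of 18 pairs of libraries from different groups with the same replicate number, 2 correlated over 0.1. Their median r was -0.043, with a range of -0.32 to 0.33. For pairs with different numbers the median was 0.02 and the range -0.37 to 0.36. Whether libraries of the same number were handled together was not tested. With the replicate number as a block, 2 enzymes were lower in 1/7MC against MC and 1 in 1/7MC+Pyr against MC, and 47 genes were higher and 134 lower in 1/7MC+Pyr+FGF against 1/7MC+Pyr.

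Precision is limited by 3 libraries a group, and for SHMT1 also by its low counts.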

Other observations

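The methionine cycle takes up the methyl group of folate. Of 11 genes tested of that cycle and of transsulfuration, 4 fell in 1/7MC against MC and none rose by edgeR. At an unadjusted p and by DESeq2, 0 rose. Their median log2 fold change was -0.13, and -0.15 with MC replicate 1 alone. Among all genes, 21.3% fell and 23.7% rose with all 12 libraries. The count of 4 was 2 without MC replicate 2, and without MC replicate 1 a single gene of the list rose. AHCY, the hydrolase of S-adenosylhomocysteine, fell, at -0.73 ± 0.10 (edgeR adjusted p = 6.43e-05), and AMD1, which starts polyamine synthesis from S-adenosylmethionine, at -0.62 ± 0.11 (edgeR adjusted p = 0.000722). CTH, which makes cysteine, fell, at -0.55 ± 0.17 (edgeR adjusted p = 0.0159), lost without MC replicate 2 (0.0651) and with MC replicate 1 alone (0.349). AHCY rose with pyruvate by 0.46 ± 0.10 (edgeR adjusted p = 0.00531) and AMD1 by 0.46 ± 0.11 (edgeR adjusted p = 0.014), the latter lost without 1/7MC replicate 1 (0.0559) or 2 (0.0531) or 1/7MC+Pyr replicate 2 (0.0539) or 3 (0.0646).

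Of 8 purine synthesis genes, whose pathway takes formyl groups from folate, 3 fell and none rose in 1/7MC against MC by edgeR. None rose at an unadjusted p or by DESeq2 either. Among all genes tested by edgeR, 21.3% fell and 23.7% rose. PFAS fell, at -0.56 ± 0.10 (edgeR adjusted p = 0.000612), GART, which uses formyl-tetrahydrofolate, at -0.41 ± 0.10 (edgeR adjusted p = 0.00457), and PRPS2 at -0.42 ± 0.11 (edgeR adjusted p = 0.00627). With MC replicate 1 alone only PFAS passed, GART having an adjusted p of 0.0906 and PRPS2 of 0.193.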
